A study of Mus musculus with 2 samples.

Results

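The 10 genes described here encode the core of the NF-kB pathway: the kinase genes Map3k14, Ikbkb and Chuk, the kinase scaffold gene Ikbkg, the inhibitor gene Nfkbia, and the 5 Rel-family subunit genes Rela, Rel, Relb, Nfkb1 and Nfkb2. They were chosen by gene name from a table of 54532 mouse genes because TRAPPC9 protein is known to bind kinases of this pathway, and all 10 were found once each. RNA was sequenced from mice with a knockout of Trappc9 (Trappc9 KO) and from wild-type mice (WT), all aged 3 to 4 weeks, with 1 library per genotype. The labels name adipose tissue and, in the titles, stem cells derived from it. The series' design text describes abdominal fat pads of 3 KO and 3 WT mice, digested with collagenase, and no source used here says whether animals were pooled into each library. How the Trappc9 allele was made, and in which cells it is lost, is likewise not stated. With 1 library per genotype differences lack a replicate check and carry no p-value. Bulk RNA cannot tell fewer cells of a type from less RNA per cell.

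NF-kB is a family of transcription factor dimers that wait in the cytoplasm bound to inhibitor proteins. In the classical arm, receptors for tumour necrosis factor, interleukin 1 or microbial products activate a kinase complex of IKKβ (Ikbkb), IKKα (Chuk) and the scaffold NEMO (Ikbkg), which marks the inhibitor IκBα (Nfkbia) for destruction and frees dimers of RelA (Rela) or c-Rel (Rel) with p50, cut from the precursor that Nfkb1 encodes. In the alternative arm, the kinase NIK (Map3k14) activates IKKα, and the precursor made by Nfkb2 is processed to a partner of RelB (Relb). TRAPPC9 is also called NIBP, for its binding to NIK and IKKβ. NF-kB activity is set mainly by protein degradation and movement into the nucleus, which transcript levels do not measure. In fat, the pathway is known for its part in inflammation of obese tissue.

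Several genes of the pathway are themselves known NF-kB targets, so their promoters are shown where they hold a match to the kappaB consensus, the DNA motif that NF-kB dimers bind. Promoter windows from RefSeq (GRCm38.p6) were available for 7 of the 10 genes, Rel, Map3k14, Nfkbia, Rela, Chuk, Nfkb2 and Ikbkg, in 12 windows, since a gene can have several start sites. In the 250 bases before the start, searched on both strands, 4 of the 12 windows held a match, and these belonged to 3 genes, Nfkbia, Nfkb2 and Rel. Over all 32851 windows of the table, 5.00% held one, and over the 13097 windows of measured protein-coding genes (defined below) 6.05%. The genes were chosen for this pathway and several are known targets, so the 4 of 12 is not read as an enrichment. The 3 windows at the first exons of these genes follow, 5′ to 3′ on the strand of the gene and ending at the base before the start, with the matches in capitals. They lie at chr12:55492648-55492897 on the minus strand for Nfkbia, at chr19:46304487-46304736 on the plus strand for Nfkb2, and at chr11:23770970-23771219 on the minus strand for Rel.
Nfkbia: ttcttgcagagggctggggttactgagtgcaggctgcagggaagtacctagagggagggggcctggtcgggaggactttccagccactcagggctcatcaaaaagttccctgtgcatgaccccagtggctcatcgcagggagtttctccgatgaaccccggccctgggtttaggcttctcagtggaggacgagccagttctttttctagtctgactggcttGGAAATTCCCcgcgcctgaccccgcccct
Nfkb2: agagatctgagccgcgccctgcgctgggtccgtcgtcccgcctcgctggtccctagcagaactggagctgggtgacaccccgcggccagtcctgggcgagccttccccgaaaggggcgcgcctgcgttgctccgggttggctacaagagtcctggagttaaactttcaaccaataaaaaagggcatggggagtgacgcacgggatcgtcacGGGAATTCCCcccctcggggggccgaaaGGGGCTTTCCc
Rel: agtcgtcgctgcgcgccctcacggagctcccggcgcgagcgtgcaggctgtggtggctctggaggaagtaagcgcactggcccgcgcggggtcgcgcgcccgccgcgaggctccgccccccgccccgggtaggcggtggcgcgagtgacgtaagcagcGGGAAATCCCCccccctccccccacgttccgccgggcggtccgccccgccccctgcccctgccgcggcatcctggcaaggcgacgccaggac

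In the Nfkbia window the match ran from 29 to 20 bases before the start. Nfkb2 had one match from 39 to 30 bases before it, which reads as the consensus on both strands, and another from 11 to 2 bases before it. The run of capitals in Rel is a pair of overlapping matches on the opposite strand, from 92 to 82 bases before the start. A further Nfkb2 window, at a start site inside the gene, held GGGACTTTCC from 225 to 216 bases before that site. These matches describe the sequence and do not show that a factor binds there. The KO and WT levels of the 3 genes did not share a direction, as given with their values below.

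The libraries gave the depth and the cell content against which the members are read. The fragments behind each value were recovered from FPKM, fragments per kilobase of a gene's length divided by a scaling factor of the library. They came to 14783728 in the KO library and 13705193 in the WT library. Trappc9 itself was at 12.6 FPKM in the KO library and 9.94 FPKM in the WT library (ratio 1.27). The value over the whole gene was thus higher in the library labelled KO. A deletion or stop within the transcript need not show in that value, and single exons could not be examined. The defining adipocyte gene Adipoq was at 0.506 FPKM in the KO library and 2.30 FPKM in the WT library, and Lep was at 0.0834 FPKM in KO and 0.0631 FPKM in WT. The 8 adipocyte markers summed to 35.9 FPKM in KO and 39.3 FPKM in WT, mostly from Fabp4 (27.0 and 25.1 FPKM), which cells other than adipocytes also express. The 8 markers of adipose progenitors, which are closer to the titles of the libraries, summed to 310.9 FPKM in KO and 340.3 FPKM in WT, with 2 higher and 5 lower in KO beyond counting error. The 9 epididymal epithelium markers summed to 28753 FPKM in the KO library and 21621 FPKM in the WT library, 9 of 9 higher in KO beyond counting error. The 4 general epithelium markers did not share a direction, and summed to 798.8 FPKM in KO and 774.6 FPKM in WT. Krt8 and Krt18 were higher in KO and Epcam and Cdh1 lower, each beyond counting error. Germ cell markers summed to 149.7 FPKM in KO and 29.6 FPKM in WT, and did not share a direction. Of 7, 5 were at least 2-fold higher, among them the sperm protamine gene Prm2 at 54.1 FPKM in KO and 5.21 FPKM in WT. Ddx4 was lower beyond counting error, at 1.65 FPKM in KO and 3.77 FPKM in WT. Sycp3 was within it, at 0.719 FPKM in KO and 1.28 FPKM in WT. Of 6 endothelial markers 4 were higher in KO and 1 lower. Of 12 leukocyte markers 6 averaged at least 1 FPKM, with 2 higher in KO and 0 lower. The leukocyte sum was 379.7 FPKM in KO and 293.3 FPKM in WT, mainly through Cd52 (243 FPKM in KO and 165 FPKM in WT), 1 of the 2 higher. Whether Cd52 came from leukocytes here was not tested, so the sum is not read as a leukocyte difference. The pan-leukocyte gene Ptprc was within counting error, at 1.06 FPKM in KO and 1.12 FPKM in WT. The B cell gene Ms4a1 was at 0.0226 FPKM in KO and 0 in WT. The part of these cell types in the values below was not tested.

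All 10 genes were expressed in both libraries, and none differed 2-fold. They rested on 320 to 2144 fragments in the KO library and 290 to 1968 in the WT library. A ratio is called higher or lower beyond counting error when its exact 95% interval from the fragments excludes 1. By that rule 2 genes were higher in KO, Ikbkb and Nfkbia, 2 were lower, Nfkb1 and Nfkb2, and 6 were within counting error. Among all 13084 measured protein-coding genes, those that averaged 1 FPKM or more over both libraries, 24.6% were higher and 17.6% lower by the same rule, so these counts among 10 genes lie near the background. Among the 7082 such genes with as many fragments as the members, 610 to 4112 in both libraries together, the shares were 26.1% and 16.8%. At least 2-fold differences were rare in the whole table, 0.948% higher and 0.29% lower. The median log2((KO + 1)/(WT + 1)) of the members was 0.06, against 0.02 for all measured protein-coding genes, and 8 of the 10 members lay within the middle 50% of those genes, from −0.11 to 0.15. The remaining members were Nfkb1 and Nfkb2.

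**Figure D1:**
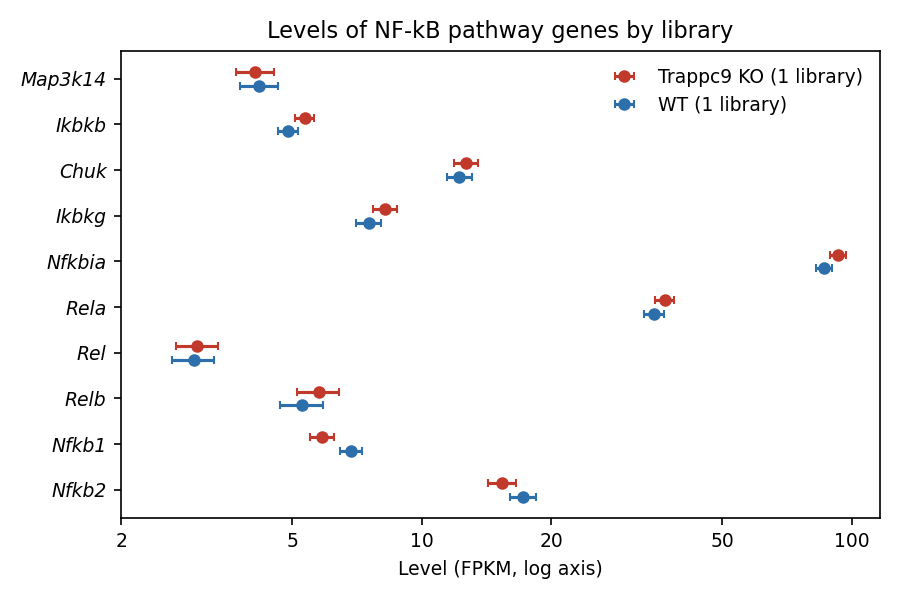
Level of each gene in FPKM on a log axis, with the Trappc9 KO library in red above the WT library in blue (1 library each); bars are exact 95% Poisson intervals of the fragments and cover counting error only. Nfkbia stands highest at 93.1 FPKM in KO and 86.3 FPKM in WT and Rel lowest at 3.01 and 2.95 FPKM, and the pairs of points lie close together for every gene.

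The kinases were taken first, since they are the reported partners of TRAPPC9. Map3k14 (ENSMUSG00000020941, chromosome 11, 103219762 to 103267472, mm10), the gene of NIK, was at 4.10 FPKM in the KO library and 4.19 FPKM in the WT library, from 384 and 389 fragments. Its ratio of 0.978 had a counting interval of 0.847 to 1.13, so a difference smaller than these bounds was not detectable at this depth. Ikbkb (ENSMUSG00000031537, chromosome 8, 22659212 to 22706589), the gene of the other reported partner IKKβ, was at 5.35 FPKM in KO and 4.90 FPKM in WT. It was higher in KO by a ratio of 1.09 (interval 1.01 to 1.18), barely beyond counting error. Chuk (ENSMUSG00000025199, chromosome 19, 44073335 to 44107480), the gene of IKKα, was at 12.7 FPKM in KO and 12.2 FPKM in WT, a ratio of 1.04 (0.943 to 1.14). The scaffold gene Ikbkg (ENSMUSG00000004221, chromosome X, 74393290 to 74453854) was at 8.21 FPKM in KO and 7.55 FPKM in WT, a ratio of 1.09 (0.992 to 1.19). The 3 genes of the kinase complex thus stood slightly higher in KO and Map3k14 slightly lower, but only Ikbkb passed counting error.

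Ikbkg needs a separate limit, because its exons share 418 bases with G6pdx, the glucose-6-phosphate dehydrogenase gene on the opposite strand. G6pdx was at 58.3 FPKM in KO and 50.1 FPKM in WT, a ratio of 1.16. At its mean density it would place 348.7 fragments on the shared bases in KO and 296.4 in WT, beside the 953 and 867 fragments counted for Ikbkg. Whether the counting used strand, or dropped fragments that fall on both genes, is not stated in any source used here, so up to that many Ikbkg fragments could belong to G6pdx. For Nfkb2 the same estimate for its neighbour Psd on the opposite strand came to 27.5 of 725 fragments in KO and 30.0 of 803 in WT. It used the exons of the GENCODE M21 annotation, 4584 bases for Nfkb2, where the table's length is 3289.

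Nfkbia was the most abundant of the 10. The gene (ENSMUSG00000021025, chromosome 12, 55489410 to 55492647) encodes IκBα, which holds RelA dimers in the cytoplasm and is remade after each round of activation. It was at 93.1 FPKM in the KO library and 86.3 FPKM in the WT library, from 2144 and 1968 fragments, a ratio of 1.08 (1.01 to 1.15). Set against the genes of its binding partners, Nfkbia over the sum of Rela, Rel and Relb was 2.05 in KO and 2.01 in WT on the FPKM scale. Both Ikbkb and Nfkbia came within counting error once the median of all measured genes, a log2 ratio of 0.02, was set to 0. When the libraries were rescaled to TPM (FPKM divided by its sum, so that both libraries have the same total), Ikbkb was within counting error and Nfkbia lower, with log2 ratios of −0.0705 and −0.0924.

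The subunit genes fall into those whose products carry their own activation domain and those that encode precursors. The first of these is Rela, RelA being the main activating subunit of the classical arm. Rela (ENSMUSG00000024927, chromosome 19, 5637483 to 5648130) was at 36.8 FPKM in KO and 34.7 FPKM in WT, a ratio of 1.06 (0.983 to 1.14). Rel (ENSMUSG00000020275, chromosome 11, 23736847 to 23770970), best known from lymphocytes, was at 3.01 FPKM in KO and 2.95 FPKM in WT, a ratio of 1.02 (0.869 to 1.19). Relb (ENSMUSG00000002983, chromosome 7, 19606217 to 19629438) was at 5.76 FPKM in KO and 5.27 FPKM in WT, a ratio of 1.09 (0.929 to 1.29). None of these 3 genes differed beyond counting error.

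Nfkb1 and Nfkb2, whose products are precursors that both supply a DNA-binding partner and act as inhibitors, were both lower in the KO library. Nfkb1 (ENSMUSG00000028163, chromosome 3, 135584655 to 135691547) was at 5.87 FPKM in KO and 6.85 FPKM in WT, from 1013 and 1170 fragments, a ratio of 0.857 (0.787 to 0.933). Nfkb2 (ENSMUSG00000025225, chromosome 19, 46304737 to 46312090) was at 15.4 FPKM in KO and 17.2 FPKM in WT, from 725 and 803 fragments, a ratio of 0.894 (0.808 to 0.990). They were the only 2 members lower beyond counting error. The 7 other scalings, filters and pseudocounts tried could not test this. Pseudocounts and filters leave the call unchanged, and each other scaling moved all ratios down, so both genes were bound to stay lower. Their summed level was 21.3 FPKM in KO and 24.1 FPKM in WT, a ratio of 0.884, whereas Rela, Rel and Relb together were at 45.5 FPKM in KO and 42.9 FPKM in WT, a ratio of 1.06; this grouping was made after the values were seen. In the whole table such ratios are common, with the middle 90% of measured protein-coding genes between 0.687 and 1.46, so both genes lie inside the ordinary range of this pair of libraries.

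**Figure D2:**
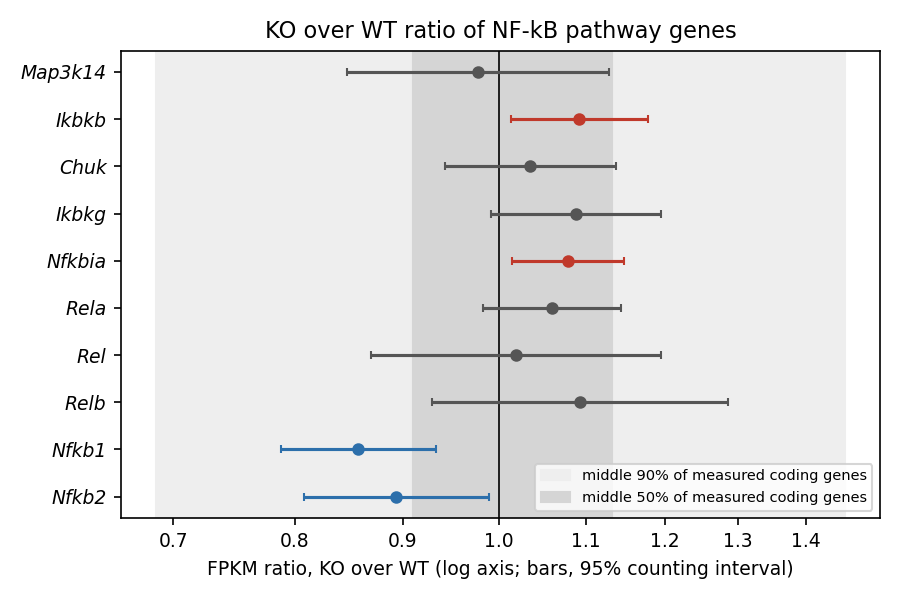
FPKM ratio of KO over WT for each gene on a log axis, with exact 95% counting intervals as bars; red marks genes higher and blue genes lower in KO beyond counting error in the deposited scaling (after rescaling to TPM, which shifts the median log2 ratio of all genes by −0.19, Ikbkb is within counting error and Nfkbia lower), and the grey bands hold the middle 50% and 90% of 13084 measured protein-coding genes. Nfkb1 at 0.857 and Nfkb2 at 0.894 are the only points left of the darker band, and every point lies inside the lighter one.

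Ratios between members do not depend on how the libraries are scaled, because the scaling cancels. Of 10 such comparisons, 2 had an interval that excluded 1. Both set a gene against Nfkb1 or Nfkb2, the 2 members called lower, so they are not separate from those calls. The share of other gene pairs whose interval excludes 1 was not computed, so this count is not read as a result about the pathway. Nfkbia relative to Nfkb1 was higher in KO by a factor of 1.26 (1.13 to 1.40), and Relb relative to Nfkb2, the gene of its usual partner, by 1.22 (1.01 to 1.48). Within the kinase set, Chuk relative to Ikbkb gave 0.948 (0.840 to 1.07), Ikbkg relative to Ikbkb 0.997 (0.884 to 1.12) and Map3k14 relative to Ikbkb 0.895 (0.761 to 1.05). The balance of the precursor genes, Nfkb2 relative to Nfkb1, was 1.04 (0.913 to 1.19). Relb relative to Rela gave 1.03 (0.862 to 1.23), Rel relative to Rela 0.961 (0.806 to 1.15) and Nfkbia relative to Rela 1.02 (0.923 to 1.12). The fragments of the alternative arm (Map3k14, Chuk, Nfkb2 and Relb) relative to those of the classical arm (Ikbkb, Ikbkg, Nfkb1, Rela, Rel and Nfkbia) gave 0.948 (0.887 to 1.01), so a shift of transcripts between the arms was not detectable beyond counting error. The comparisons share genes and were not adjusted for their number.

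**Figure D3:**
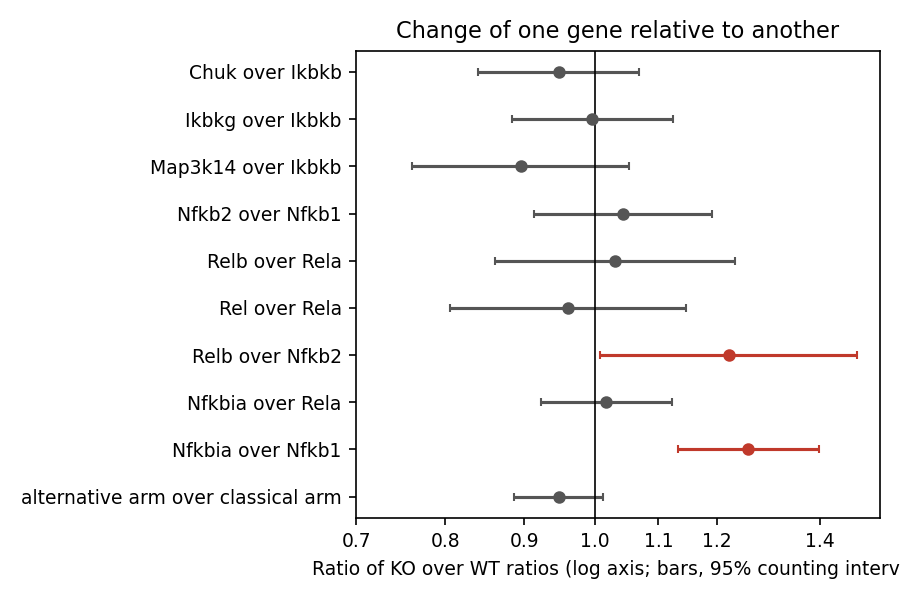
Each point is the KO over WT ratio of the first gene divided by that of the second, on a log axis with conditional exact 95% counting intervals as bars; the last row compares summed fragments of the alternative and the classical arm. Only Relb over Nfkb2 (1.22) and Nfkbia over Nfkb1 (1.26), in red, have intervals that leave out 1.

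On the FPKM scale the order of levels was the same in both libraries. It ran Nfkbia, Rela, Nfkb2, Chuk, Ikbkg, Nfkb1, Relb, Ikbkb, Map3k14 and Rel, spanning a factor of 31.0 in KO and 29.3 in WT. In KO the neighbours Nfkb1 and Relb, and Relb and Ikbkb, had overlapping counting intervals; in WT the overlaps were between Ikbkg and Nfkb1 and between Relb and Ikbkb. Rela made up 55.0% of the summed FPKM of the 5 subunit genes in KO and 51.8% in WT. Nfkb2 followed with 23.1% in KO and 25.7% in WT, and Rel was the smallest at 4.50% in KO and 4.40% in WT.

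This order rests on the gene lengths in the table. For 8 of the 10 genes that length equalled all exons of every annotated transcript joined together in GENCODE M21 (GRCm38), which for some genes is far longer than the mRNA. The exceptions were Rela, at 2716 bases against 3072 joined, and Nfkb2, at 3289 against 4584. Their FPKM thus used a shorter divisor than the joined exons would give. For Ikbkb the table has 19078 bases, whereas the principal coding transcript has 3580, and for Nfkb1 it has 12061 bases against 4117. With the principal transcript's length as divisor, a choice made after the lengths were seen, 5 of the 10 genes changed rank by the mean of both libraries. Ikbkb moved to the third place, at 28.5 in KO and 26.1 in WT, and Nfkb1 to the fourth by that mean, at 17.2 in KO and 20.1 in WT. The libraries differed here: Chuk, at 18.4 in KO and 17.8 in WT, was above Nfkb1 in KO and below it in WT. On this scale Chuk was below Ikbkb, at 0.646 of its level in KO and 0.682 in WT, where the deposited FPKM put it above, at 2.37 times in KO and 2.50 times in WT. Nfkb2 likewise stood at 0.938 of Nfkb1 in KO and 0.900 in WT, against 2.62 and 2.52 times on the FPKM scale. The shares of the subunit genes moved too. Rela made up 44.2% of their sum in KO and 40.8% in WT by transcript length. Nfkb1 was second at 20.7% in KO and 23.6% in WT, ahead of Nfkb2 at 19.4% and 21.2%. This divisor overstates a gene if some of its fragments came from exons outside the principal transcript, so which of Chuk and Ikbkb had more transcripts cannot be told from gene-level values. Nfkbia and Rela at the top and Rel at the bottom kept their places on both scales, and the ratios of KO over WT are the same on either.

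**Figure D4:**
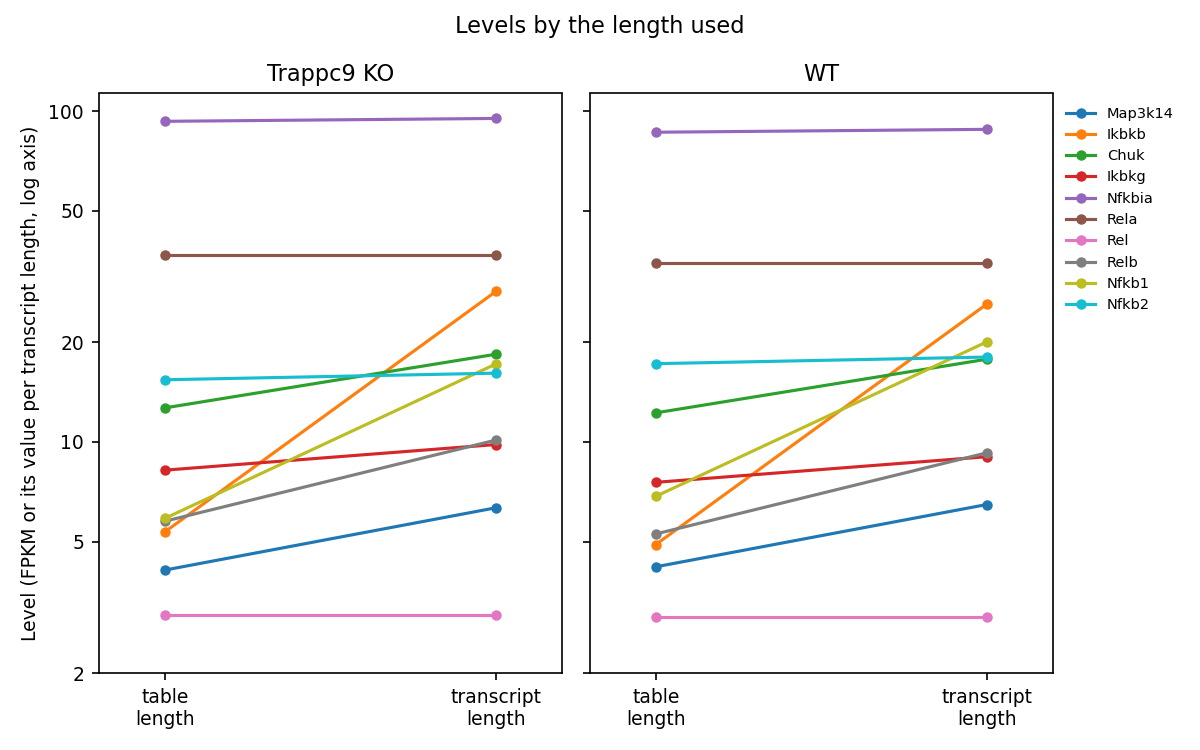
Level of each gene in KO (left) and WT (right) on a log axis, as deposited FPKM with the table's gene length and after division by the length of the principal coding transcript instead. The lines of Ikbkb (5.35 and 28.5 in KO) and Nfkb1 (5.87 and 17.2 in KO) climb, Ikbkb past Chuk and Nfkb2 and Nfkb1 past Ikbkg and Nfkb2, while Nfkbia, Rela and Rel stay nearly level.

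Around the core, 148 further pathway genes in 10 lists were examined, of which 121 were measured. Of these, 26 (21.5%) were higher in KO and 22 (18.2%) lower beyond counting error, against 24.6% and 17.6% of all measured protein-coding genes, with a median log2 ratio of −0.02, again close to the median of 0.02 over all measured genes. Only 1 of the 121, Ccl21a, passed 2-fold. It was at 12.0 FPKM in KO and 2.81 FPKM in WT, from 69 and 16 fragments, and this lymphoid chemokine has near-identical copies with which it can share reads.

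Because 24.6% of all measured genes were higher and 17.6% lower, the counts of single lists below describe these libraries and are not read as results about a list. Of 16 measured receptor genes upstream of the kinases 3 were higher (18.8%) and 3 lower (18.8%). Both receptors for tumour necrosis factor were lower in KO: Tnfrsf1a, the most abundant, was at 37.3 FPKM in KO and 41.1 FPKM in WT, and Tnfrsf1b was at 14.3 FPKM in KO and 19.5 FPKM in WT (ratio 0.732, 0.666 to 0.803). Tlr2, a receptor for bacterial lipoproteins, was also lower, at 4.08 FPKM in KO and 5.11 FPKM in WT. Higher were the flagellin receptor gene Tlr5 (2.54 FPKM in KO and 1.87 FPKM in WT), the lipopolysaccharide co-receptor gene Cd14 (27.1 and 23.8 FPKM) and Ltbr (36.1 and 33.2 FPKM), the lymphotoxin receptor that feeds the alternative arm, the last named after its value was seen. Of 8 measured ligand genes 2 were higher and 0 lower. These were the interleukin 1 genes Il1a, at 3.54 FPKM in KO and 2.15 FPKM in WT (ratio 1.65, 1.19 to 2.31), and Il1b, at 16.2 FPKM in KO and 11.9 FPKM in WT (1.36, 1.17 to 1.57). Macrophages are a known source of both. Of the measured myeloid genes in the leukocyte list, Lyz2 was higher at 98.9 FPKM in KO and 91.0 FPKM in WT. Cd68 (13.7 and 12.5 FPKM), Csf1r (14.6 and 15.2 FPKM) and Adgre1 (5.40 and 6.41 FPKM) were within counting error. Below the measured level, Itgax was higher at 1.02 FPKM in KO and 0.559 FPKM in WT (ratio 1.82, 1.21 to 2.78). Itgam was within counting error at 0.640 and 0.604 FPKM. The part of myeloid cells in the ligand values was not tested.

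Between receptors and kinases, 27 adaptor and kinase genes were measured, 4 higher (14.8%) and 5 lower (18.5%). Irak1, the kinase below the interleukin 1 and Toll-like receptors, was the most abundant at 40.1 FPKM in KO and 32.3 FPKM in WT (ratio 1.24, 1.17 to 1.31). Traf5, an adaptor of tumour necrosis factor family receptors, was at 1.94 FPKM in KO and 3.09 FPKM in WT (0.629, 0.499 to 0.789), and the death domain adaptor gene Fadd was at 2.83 FPKM in KO and 3.69 FPKM in WT. Traf2 and Traf3, which keep NIK protein low by sending it for degradation, were within counting error at 5.44 and 6.76 FPKM in KO and at 5.94 and 6.99 FPKM in WT. Of 5 IKK-related kinase and adaptor genes, 1 was higher and 1 lower. The kinase gene Tbk1 was at 16.8 FPKM in KO and 16.0 FPKM in WT, and the adaptor gene Tbkbp1 was lower at 1.21 FPKM in KO and 1.88 FPKM in WT. Traf2 and Traf3 were named for their part in NIK turnover, with their values known.

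Other inhibitors and the ubiquitin enzymes of the pathway came next. Of 7 genes listed as other IκB genes, among them the ankyrin repeat gene Ankrd42 and the IκB-like gene Nfkbil1, 2 were higher and 0 lower. Nfkbib, the gene of IκBβ, was at 16.8 FPKM in KO and 13.3 FPKM in WT (ratio 1.26, 1.11 to 1.44), and Nfkbid was at 5.07 FPKM in KO and 3.91 FPKM in WT (1.30, 1.02 to 1.64). Nfkbiz, a nuclear family member and the most abundant of the 7, was at 24.4 FPKM in KO and 24.99 FPKM in WT. The linear ubiquitin and deubiquitinase list also holds partners of the ubiquitin-editing enzyme A20. Of its 14 measured genes 3 were higher and 0 lower. Higher were Tnfaip3 (12.9 FPKM in KO and 11.3 FPKM in WT), the gene of A20, and its partners Tax1bp1 (23.6 and 19.4 FPKM) and Rnf11 (35.3 and 31.0 FPKM). Rnf31, Rbck1 and Sharpin, the linear ubiquitin ligase genes, were within counting error and are named with their values known. The SCF ligase that marks IκBα had 2 of 5 genes higher and 2 lower, with the substrate receptor gene Fbxw11 at 25.1 FPKM in KO and 28.0 FPKM in WT. Of the genes outside the core that were called higher in KO and are named here or by the naming rule, Tnfaip3, Rnf11, Azi2, Skp1a, Rbx1, Cd14, Enpp2 and Ltbr had a log2 ratio below 0 when the libraries were rescaled to TPM, a step that shifted the median of all measured genes by −0.19.

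Genes known as NF-kB targets lie downstream. Of 31 measured classical targets 6 were higher (19.4%) and 7 lower (22.6%), with a median log2 ratio of 0.01. By log2((KO + 1)/(WT + 1)) the chemokine genes Cxcl1, Ccl2 and Ccl7 were farthest from 0, all lower in KO at ratios of 0.606, 0.666 and 0.683. Ccl5 followed at 2.84 FPKM in KO and 1.84 FPKM in WT, a ratio of 1.54 within counting error (0.912 to 2.66), and the most abundant target, the lipocalin gene Lcn2, was at 977 FPKM in KO and 784.5 FPKM in WT (ratio 1.25). Lcn2 is also made by epithelia, whose epididymal and general markers are summed above, and their part in its level was not tested. Of 9 alternative-arm targets only 3 were measured. Apart from Ccl21a these were Cxcl12, lower at 12.9 FPKM in KO and 14.9 FPKM in WT, and Enpp2, higher at 68.7 FPKM in KO and 62.4 FPKM in WT. Among 14 nuclear co-factor genes 3 were higher, Kat5, Sirt1 and Rps3, and 3 lower, including the co-repressor deacetylase gene Hdac3 at 20.5 FPKM in KO and 23.4 FPKM in WT.

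**Figure D5:**
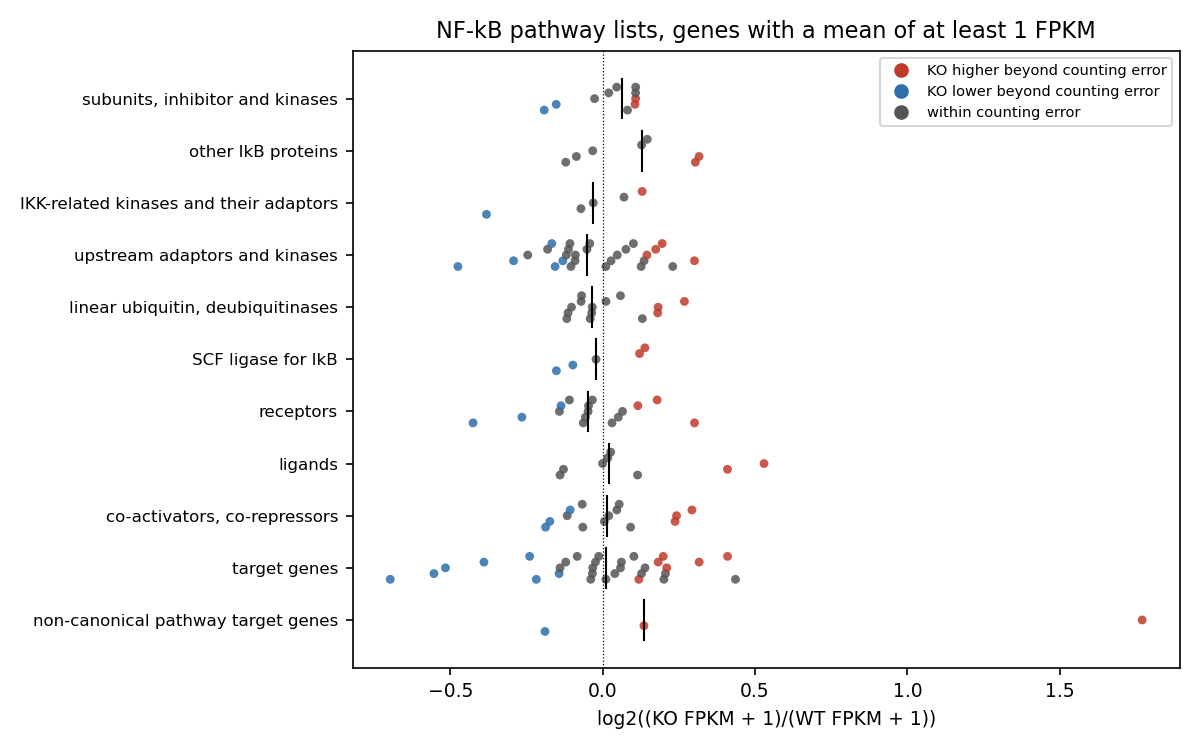
Each point is a measured gene, placed by log2((KO + 1)/(WT + 1)) within its pathway list; red is higher and blue lower in KO beyond counting error, grey is within it, and black ticks are list medians. The medians lie between −0.05 and 0.14, and Ccl21a at 1.77 is the only point past 2-fold.

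The table also marks genes with a Rel homology domain, 10 in all: the 5 NF-kB subunits and 5 genes of the NFAT family, which bind DNA through a related domain. Among the NFAT genes, Nfatc4 was lower at 2.72 FPKM in KO and 3.73 FPKM in WT (ratio 0.729, 0.611 to 0.868), and Nfat5, Nfatc3, Nfatc1 and Nfatc2 were within counting error, with Nfat5 the most abundant at 12.9 FPKM in KO and 12.6 FPKM in WT. This group was read from the table after the values were seen.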

How the data were processed

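The table deposited by the authors holds 1 FPKM value per gene for each of 2 libraries, with gene length, position and biotype. Per the labels' protocols, 1 µg of total RNA went into each Illumina TruSeq library. The aligner HISAT2 2.0.5 and the builds hg38 and mm10 appear in the submitters' processing notes; the counting program and its strand setting are not given in the sources used here. The product of FPKM and length came in whole steps in each library (100% of values above 0, within 0.01 of a step), which gave the fragments. The denominators of FPKM stood in a KO over WT ratio of 1.01, equal to the median ratio of fragments over genes, against 1.08 for the totals. The deposited values were thus already scaled by a factor other than the totals. That equality is not a check of the scaling, which was kept as deposited.

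Differences are log2((KO + 1)/(WT + 1)), which understates changes of low genes. Ratios carry exact 95% Clopper-Pearson intervals on the KO share of fragments, ratios of ratios conditional exact intervals, and levels exact Poisson intervals. All cover counting error only, without molecular identifiers. Genes averaging 1 FPKM or more were called measured. The code for the Clopper-Pearson intervals was tested on simulated data, and that for the other interval types was not. Named were all 10 members, Trappc9, and per list the 4 largest log2 ratios and the most abundant gene, of which some are given here; others are marked. For repeated symbols the more abundant line was kept. The members and lists were chosen with earlier results of these data known. Alternatives were other pseudocounts, filters, scalings, interval types and gene lengths. Python 3.11.15, pandas 2.3.3, numpy 2.4.6 and SciPy 1.17.1 were used.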

Additional observations from a re-analysis of the deposited data

How the results depend on the processing

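Nfkb1 and Nfkb2 stayed lower beyond counting error under every pseudocount, filter and scaling tried, but these settings could not have changed that. Pseudocounts and filters leave a call unchanged, and each other scaling moved all ratios down. The calls of Ikbkb and Nfkbia as higher could be lost that way, and they rested on the deposited scaling. The number of members higher was 0 after rescaling to TPM, after scaling by total fragments and after centring on the median of all measured genes, against 2 as reported. After rescaling to TPM 6 members were lower, where 45.4% of all measured genes were, and their median log2 ratio was −0.13, with Ikbkb at −0.0705 and Nfkbia at −0.0924. That scaling moved the median of all genes by −0.19, and relative to it the members' median was 0.03, against 0.04 as reported. The cause of the difference between scalings was not tested. Among other pathway genes TPM turned Azi2 (−0.0576), Tnfaip3 (−0.00461), Rnf11 (−0.0158), Skp1a (−0.0617), Rbx1 (−0.0720), Cd14 (−0.0160), Enpp2 (−0.0642) and Ltbr (−0.0824).

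Counts of pathway genes followed the scaling. Over all lists together 6 were higher and 66 lower after TPM, and 12 and 43 after scaling by total fragments, against 26 and 22. Of all measured genes 7.81% were higher and 45.4% lower after TPM, and 14.5% and 30.4% after scaling by total fragments. By list, higher and lower counts after TPM were 0 and 3 for other IκB genes, 0 and 2 for IKK-related genes, 1 and 17 for adaptors and kinases, 1 and 9 for linear ubiquitin and deubiquitinase genes, 0 and 7 for receptors, 0 and 10 for co-factors, 2 and 15 for targets and 1 and 2 for alternative-arm targets; the SCF ligase had 0 higher and ligands 2 lower. After scaling by total fragments they were 1 and 1 for other IκB genes, 1 and 13 for adaptors and kinases and 1 and 5 for receptors; IKK-related and SCF genes had 0 higher, targets 2 and alternative-arm targets 1, and linear ubiquitin genes had 5 lower and co-factors 7. After centring, IKK-related genes had 0 higher, SCF genes 1 and receptors 1, and linear ubiquitin genes 2 lower. With a mean of at least 5 FPKM, 1 other IκB gene and 1 ligand were higher, and 0 IKK-related and 3 adaptor genes lower. Ratios of ratios kept their calls with the Woolf interval, and transcript length in place of the table's length changed the rank of 5 members. No paired analysis was possible because each genotype has 1 library, and for the same reason no replicate could be left out. The depth limits differences in Rel, Relb and Map3k14 most, with 290 to 389 fragments per library.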
